A study of Homo sapiens with 6 samples.

Results

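The clustered protocadherin locus on the long arm of human chromosome 5 (band 5q31) was followed in Hi-C maps of HCT116, an established colorectal cancer cell line, and of DKO1, a derivative of it made by targeting DNMT1 and DNMT3B, genes of DNA methyltransferases. The locus was taken as chr5:140160001-140900000 (hg19), and its members were the 37 bins of 20 kb that start there, of 140474 bins present in the compartment tracks of both lines, together with the 2 HCT116 and 3 DKO1 topologically associating domains that touch it, of 4289 and 1823 in all. It was divided into an alpha stretch of 13 bins, a beta stretch of 14 bins from position 140420001 and a gamma stretch of 10 bins from position 140700001, and flanks of 1 Mb, or 50 bins, were read on each side. The study made 3 Hi-C libraries per line, and each line is represented by 1 pooled compartment track and 1 pooled domain list, so no value has a replicate error, no test between the lines could be made, and differences are between these 2 maps. The labels name the parent as wild type and give no treatment. DKO1 is a single derivative line, and the labels do not say whether the libraries came from separate cultures. The files used here hold no read or contact counts, and the depth of the maps is unknown.

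Clustered protocadherins are cell adhesion proteins of the cadherin superfamily, known for giving single neurons a surface identity. Each alpha and gamma transcript joins 1 variable exon, which has its own promoter, to constant exons at the end of its cluster, whereas each beta gene is a single exon. Promoter choice is known to depend on DNA methylation, on the insulator protein CTCF and on cohesin, which extrudes chromatin loops, and DNMT3B is known to methylate these promoters in the early mouse embryo. None of the files used here measures methylation, CTCF binding or expression, so neither the loss of the enzymes nor the activity of the protocadherin genes could be checked.

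In the RefSeq gene table, which is on another build (GRCh38.p14) and was used for names and gene order only, the alpha cluster held 15 protein-coding genes from PCDHA1 to PCDHAC2, the beta cluster 16 from PCDHB1 to PCDHB15, and the gamma cluster 22 from PCDHGA1 to PCDHGC5. Another 6 were pseudogenes. SLC25A2, a mitochondrial ornithine carrier, and TAF7, a subunit of the general transcription factor TFIID, lie between the beta and gamma clusters. The coding neighbours are ZMAT2 before the alpha cluster and DIAPH1, an actin-nucleating formin, followed by HDAC3, a histone deacetylase, after the gamma cluster. No gene was assigned to a bin, since the bins are on hg19.

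Most promoters of these genes are known to share a short element. Its core letters are marked here because they hold a CG dinucleotide, where DNA methyltransferases act. Promoter windows, from 250 bases before to 50 bases after a gene start, were found in RefSeq (GRCh38.p14) for 47 of the 53 genes, as 52 windows. Entries were lacking for PCDHA3, PCDHA13, PCDHB6, PCDHB11, PCDHGA12 and PCDHGC5. The letters CGCT, the core of this element, were searched on both strands. They were found in 51 of the 52 windows, all but that of PCDHA9, and in 70.0% of the 35116 windows of the whole table. A match of these letters alone does not show that a promoter has the element. The letters CCCTC, part of the CTCF motif, were found on either strand in 3 of 13 alpha, 0 of 14 beta and 13 of 25 gamma windows, and in 71.2% of all windows. These letters alone do not show whether a CTCF site is present or absent. The median GC content was 40.7% in the protocadherin windows and 58.7% in the whole table. The 2 motifs can overlap. The median number of CG dinucleotides was 7 in alpha, 7.5 in beta and 10 in gamma windows, against 14 in the whole table. The 25 gamma windows belong to 20 genes, whereas each alpha and beta gene has a single window. PCDHGB1, PCDHGB4, PCDHGB5, PCDHGB6 and PCDHGC4 have 2 windows each, with 8 to 25 CG dinucleotides. These repeated genes raise the gamma median, which is over windows and not over genes. PCDHAC1, one of the last alpha genes, had the most with 27, and PCDHGA4 the fewest with 2. The 250 bases before the start of the first and last gene with an entry in each cluster are given 5′ to 3′, with CGCT, or AGCG where it lies on the other strand, in capitals. Of the 2 windows of PCDHGC4, the first along the chromosome was used. The capitals mark letters and are not calls of the element.
PCDHA1, GRCh38.p14 chr5:140785890-140786139, plus strand: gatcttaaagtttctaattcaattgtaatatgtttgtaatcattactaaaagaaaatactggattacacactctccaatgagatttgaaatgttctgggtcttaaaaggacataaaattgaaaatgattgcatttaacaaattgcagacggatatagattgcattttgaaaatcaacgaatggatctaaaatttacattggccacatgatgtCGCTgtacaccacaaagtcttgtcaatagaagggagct
PCDHAC2, GRCh38.p14 chr5:140966226-140966475, plus strand: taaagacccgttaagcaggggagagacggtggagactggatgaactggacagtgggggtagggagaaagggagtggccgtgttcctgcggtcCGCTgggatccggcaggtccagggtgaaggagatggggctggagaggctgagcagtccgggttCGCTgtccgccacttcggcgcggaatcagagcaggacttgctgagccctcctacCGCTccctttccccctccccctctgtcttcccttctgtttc
PCDHB1, GRCh38.p14 chr5:141051124-141051373, plus strand: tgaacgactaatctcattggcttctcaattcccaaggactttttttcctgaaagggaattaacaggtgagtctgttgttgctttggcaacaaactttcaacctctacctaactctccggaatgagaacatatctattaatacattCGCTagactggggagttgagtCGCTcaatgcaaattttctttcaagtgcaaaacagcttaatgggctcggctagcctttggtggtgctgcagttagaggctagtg
PCDHB15, GRCh38.p14 chr5:141245145-141245394, plus strand: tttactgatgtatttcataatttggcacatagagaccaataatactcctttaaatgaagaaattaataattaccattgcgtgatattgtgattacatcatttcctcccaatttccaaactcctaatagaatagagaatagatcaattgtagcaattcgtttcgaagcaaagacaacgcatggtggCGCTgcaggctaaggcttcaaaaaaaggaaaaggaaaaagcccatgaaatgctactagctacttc
PCDHGA1, GRCh38.p14 chr5:141330264-141330513, plus strand: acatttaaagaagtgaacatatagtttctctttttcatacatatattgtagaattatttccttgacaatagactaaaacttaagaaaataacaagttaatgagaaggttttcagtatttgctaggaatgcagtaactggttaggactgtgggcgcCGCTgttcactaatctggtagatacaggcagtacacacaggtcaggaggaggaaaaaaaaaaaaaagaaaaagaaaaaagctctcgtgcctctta
PCDHGC4, GRCh38.p14 chr5:141484780-141485029, plus strand: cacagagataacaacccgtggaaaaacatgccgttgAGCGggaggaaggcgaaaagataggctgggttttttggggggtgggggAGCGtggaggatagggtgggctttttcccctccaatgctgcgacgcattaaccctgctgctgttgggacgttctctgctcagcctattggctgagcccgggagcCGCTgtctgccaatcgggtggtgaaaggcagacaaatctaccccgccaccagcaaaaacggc
The stretches of PCDHA1, PCDHB1, PCDHB15 and PCDHGA1 hold 3 to 5 CG dinucleotides, and those of PCDHAC2 and PCDHGC4, which lie at the constant-exon ends of their clusters, hold 13 each. Bins of 20 kb cannot resolve single promoters, so these letters describe the locus and are not set against the maps.

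In HCT116 the locus was an island of compartment B, the closed and gene-poor part of the genome, in a region of compartment A, the open part. Compartments were read from PC1, the first principal component of the contact map, which the deposited tracks give in units of the chromosome's own SD around a mean of 0, with values above 0 called A and others B. All 37 bins were B in HCT116, averaging -1.20 with a range from -1.64 to -0.57. The upstream flank had a mean of 1.04 with 47 of 50 bins in A, and the downstream flank 1.19, also with 47 of 50. The B interval that holds the locus ran from 140100001 to 140960000 (860 kb, 43 bins), between A intervals of 3140 kb and 2060 kb.

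In DKO1 the locus was still an island of B, but its PC1 was closer to 0. Its mean was -0.74, with a range from -1.29 at 140460001 to 0.00085 at 140880001, and 36 of 37 bins were B. The mean difference, DKO1 minus HCT116, was 0.46, with an SD over bins of 0.20 and a range from 0.11 to 0.99. PC1 was higher in DKO1 in 37 of 37 bins, where 50.6% of all autosomal bins and 57.4% of those in B in HCT116 were higher. A run of this kind is not rare, since 12.6% of the autosomal windows of 37 bins were higher in every bin. The count depends on the scale, because as a percentile among the 8798 bins of chromosome 5 only 27 of the 37 bins were higher, with a mean percentile of 16.8 in HCT116 and 21.7 in DKO1. After a running mean of 10 Mb was subtracted from each track, 31 of the 37 were higher. Since all 37 bins were B in HCT116, none could switch from A to B, a switch found in 8.92% of autosomal bins. From B to A 1 bin switched, against 4.4% of autosomal bins and 9.5% of those in B in HCT116.

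**Figure D1:**
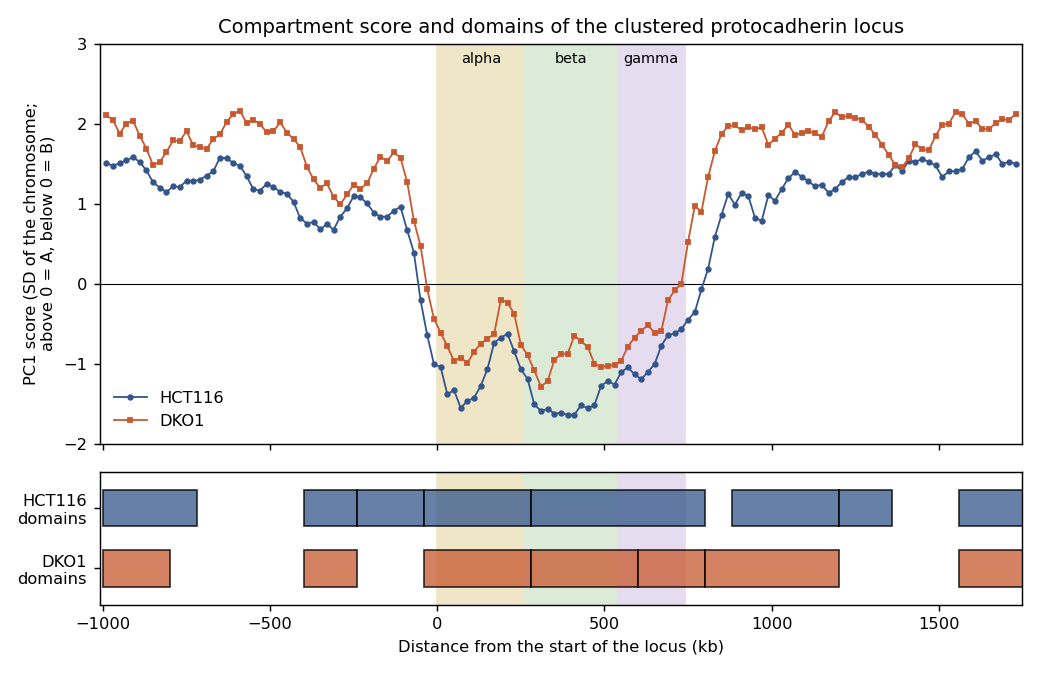
PC1 score of each 20 kb bin (upper panel, vertical axis in SD of the chromosome, points joined by lines) and domains (lower panel, boxes) in HCT116 (blue) and DKO1 (orange), against the distance in kb from the start of the locus, with the alpha, beta and gamma stretches shaded. Both lines dip below 0 over the locus, the DKO1 track lies above the HCT116 track throughout, and the HCT116 domain of 520 kb over beta and gamma is replaced by DKO1 domains of 320 and 200 kb.

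The flanks were higher in DKO1 as well, so the island lay about as far below its surroundings in both lines. The upstream flank went from a mean of 1.04 to 1.56 and the downstream flank from 1.19 to 1.83, with 50 of 50 bins higher on each side. As chromosome 5 percentiles 40 upstream and 35 downstream bins were higher, and after the running mean was subtracted 43 and 45. The differences of 0.52 and 0.63 were larger than that of the locus. For the mean of both flanks the difference was 0.58, and a flank difference at least as high was found in 4.65% of 122910 autosomal windows. Depth, taken as the mean of the flank means minus the mean of the locus, was 2.32 in HCT116 and 2.43 in DKO1. The difference of 0.11 was 0.24 with flanks of 500 kb and -0.041 with flanks of 2 Mb, so its direction depends on the flank length. An absolute change of depth at least this large was found in 58.1% of 122910 autosomal windows. In percentiles of chromosome 5, which do not depend on the scaling, depth was 69.2 in HCT116 and 70.7 in DKO1. By stretch, depth was 2.23 and 2.37 for alpha, 2.60 and 2.65 for beta, and 2.03 and 2.20 for gamma, HCT116 first.

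Few windows of the autosomes lay so far below their flanks. A depth at least as large as that of the locus was found in 0.0212% of autosomal windows in HCT116, or 26 overlapping windows in 4 separate regions, and in 0.0171% in DKO1, or 21 windows in 2 regions. Both regions of DKO1 were on chromosome 5, namely the protocadherin locus and one whose first window starts at 157480001. The first windows of the other HCT116 regions start at 157580001 of chromosome 5, 5000001 of chromosome 4 and 31400001 of chromosome 7. Overlapping windows are not independent, and these shares describe the maps. Depth is in SD of each chromosome, and chromosomes differ in the shape of their tracks. The 95th percentile of PC1 was 1.43 on chromosome 5 and 1.38 over the autosomes in HCT116, and 1.87 and 1.56 in DKO1. How far this affects the ranks of depth was not tested.

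**Figure D2:**
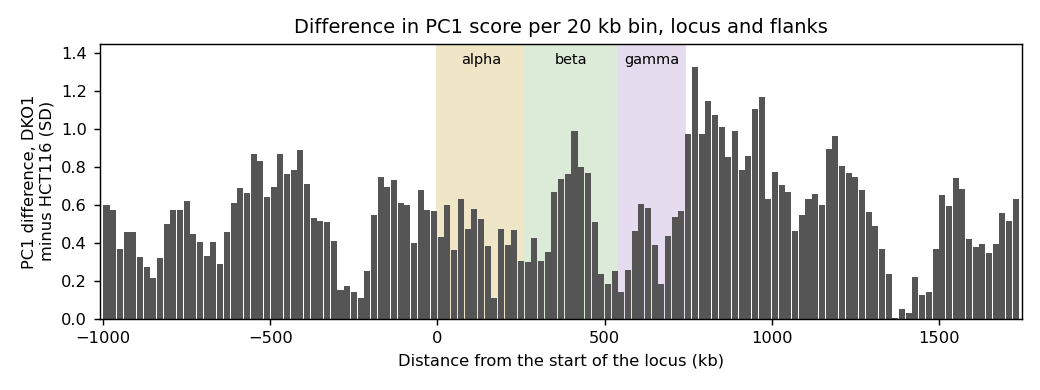
Difference in PC1, DKO1 minus HCT116 (vertical axis in SD of the chromosome), for each 20 kb bin (bars) of the locus and its flanks, against the distance in kb from the start of the locus. Every bar is above 0, the highest within the locus is 0.99 in the middle of beta, and the highest of all is 1.33 just after gamma.

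The alpha stretch kept its shape between the lines at a higher level. Averaged over its bins, PC1 was -1.12 in the parent and -0.67 in DKO1, a difference of 0.44 with 13 of 13 bins higher. Its first bin, 140160001, was at -1.04 in HCT116 and -0.61 in DKO1. Its floor lay in the first part, with -1.55 at 140220001 in HCT116 and -0.99 at 140240001 in DKO1. A ridge followed in both lines, with -0.63 at 140360001 in HCT116 and -0.20 at 140340001 in DKO1. At the ridge the chromosome 5 percentile of bin 140340001 was 23.8 in HCT116 and 41.2 in DKO1, so this bin lay nearer the middle of the chromosome's range in DKO1. The smallest difference of the locus, 0.11, was in bin 140320001, just before the ridge. Across the 13 bins the tracks had a Pearson r of 0.90. Neighbouring bins share their chromatin and the whole map, and the value is given as a description only.

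The beta stretch was the deepest part in both lines and the part whose shape differed most. The split from alpha was not marked by a step, since the bins on its sides were -1.07 and -1.19 in HCT116 and -0.76 and -0.89 in DKO1. The beta mean was -1.48 in HCT116 and -0.96 in DKO1, a difference of 0.52. In HCT116 it formed a flat floor, with values between -1.64 and -1.51 in the 10 bins from 140440001 to 140640000 and the lowest of the locus, -1.64, at 140540001. In DKO1 the same floor held a rise in its middle. PC1 was -1.29 at 140460001, -0.65 at 140560001 and -1.04 at 140640001. The largest difference of the locus was therefore at 140560001, where -1.64 stood against -0.65. The 6 bins from 140500001 to 140620000 had differences from 0.67 to 0.99, and the last 3 beta bins, from 140640001, had 0.24, 0.19 and 0.25. Across the 14 bins r was -0.16, against 0.90 in alpha and 0.84 in gamma. In HCT116 the SD over bins was 0.17 in beta, 0.32 in alpha and 0.24 in gamma, and a narrow range can by itself lower r. As chromosome 5 percentiles 8 of the 14 bins were higher in DKO1, and at 140640001 the percentile was 16.9 in HCT116 and 12.5 in DKO1.

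The gamma stretch sloped up towards the downstream flank in both lines. Its mean was -0.92 in HCT116 and -0.50 in DKO1, with a difference of 0.42. The last beta bin, 140680001, was at -1.26 and -1.01, and the first gamma bin, 140700001, was at -1.11 and -0.96, the smallest difference of the gamma stretch at 0.14. Bin 140760001 had the largest, 0.60, from -1.19 to -0.59. The last 3 bins, from 140840001, were -0.64, -0.62 and -0.57 in HCT116 and -0.21, -0.08 and 0.00085 in DKO1. The single B-to-A bin of the locus is the last of these, and its DKO1 value lies just above 0. Across the 10 bins r was 0.84. The mean differences of the 3 stretches were 0.44, 0.52 and 0.42, with SDs over bins of 0.14, 0.26 and 0.17. Bins are not replicates, so these SDs describe the spread within a stretch and cannot show whether the means differ.

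The B interval was shorter in DKO1 by 5 bins, 4 of them at the gamma end. It ran from 140120001 to 140880000 (760 kb). At the alpha end 1 bin, 140100001, switched to A, from -0.21 to 0.47. At the gamma end the 4 bins from 140880001 to 140960000 switched, 3 of them outside the locus. Bin 140920001 went from -0.36 to 0.97, the largest difference of the locus and its flanks at 1.33. Where PC1 crossed 0, by linear interpolation between bin centres, the border was shifted by 24.3 kb at the alpha end and by -65.5 kb at the gamma end, both towards the inside of the island. At the gamma end of DKO1 PC1 went from -0.08 at 140860001 to 0.97 at 140920001, within 4 bins. Since PC1 was higher in DKO1 on both sides of each border, a shift of the border and a change of level cannot be told apart here.

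The domain over the alpha cluster was the same in both lists, and the domain over beta and gamma was divided in DKO1. In both lines a domain of 320 kb ran from 140120001 to 140440000 and ended 20 kb after the alpha to beta split. In HCT116 the next domain, of 520 kb, ran from 140440001 to 140960000 over nearly all of beta, all of gamma and the first bins beyond. In DKO1 exactly this stretch was listed as a domain of 320 kb, from 140440001 to 140760000, and a domain of 200 kb, from 140760001 to 140960000. The boundary at 140760000 lay 60 kb after the beta to gamma split and 200 kb from the nearest HCT116 boundary. The piece over beta and the first gamma bins averaged -1.43 in HCT116 and -0.93 in DKO1. The piece over most of gamma had -0.68 in HCT116 and -0.02 in DKO1. In DKO1 this last mean joins B bins at its start with A bins beyond the locus, and no step in PC1 lay at the boundary. The bins on its sides were -0.67 and -0.59 in DKO1 and -1.13 and -1.19 in HCT116, all B. Averaged over these, PC1 was -1.16 in HCT116 and -0.63 in DKO1.

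A DKO1 boundary lay inside 147 of the 4086 autosomal HCT116 domains, or 3.60%. An exact division, a definition made after this case was seen, was rarer. Of the 4086 autosomal HCT116 domains 3, or 0.0734%, were divided without remainder into abutting DKO1 domains, and the other 2, at chr14:67840001-68280000 and chr17:46240001-46720000, had a positive mean PC1 in HCT116 (1.28 and 0.59). With a tolerance of 40 kb at the outer ends 5 domains were divided. The 520 kb domain is long, as 3.13% of the autosomal HCT116 domains were at least as long, where the median was 280 kb. Of the 2903 autosomal DKO1 boundaries 2.17% lay at least 200 kb from any HCT116 boundary. The lists carry no score, so how firmly the boundary at 140760000 was called is not known.

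The locus was also rich in DKO1 domains for a B region. DKO1 domains numbered 3 and HCT116 domains 2, and in both lines they covered the whole locus. More domains in DKO1 than in HCT116 touched 0.834% of the autosomal windows of this length, and fewer touched 58.5%. Among the 60152 windows with a negative mean PC1 in HCT116, 0.643% were touched by at least 3 DKO1 domains and 80.3% by 0. Over the locus and both flanks 8 of 11 HCT116 boundaries were found in DKO1 within 40 kb, against 45.2% on all autosomes, and all 8 were at the same position. In the other direction 8 of 10 DKO1 boundaries were found in HCT116, against 92.5%. At 80% reciprocal overlap 4 of 8 HCT116 domains were matched, against 35.9%, and 4 of 7 DKO1 domains, against 84.0%. Of the boundaries counted, 1 of the 11 in HCT116 and 2 of the 10 in DKO1 lay in the locus. The rest lay in the flanks, which were mostly A, and the autosomal shares join A and B. The domains beside the B interval differed in part. A 200 kb HCT116 domain before it, from 139920001 to 140120000, had no counterpart in DKO1, nor had one from 141360001 to 141520000 beyond it. Directly after the interval, an HCT116 domain from 141040001 to 141360000 was matched, at exactly 80% overlap, by a DKO1 domain from 140960001 to 141360000, which began 80 kb earlier. In DKO1 the domains from 140120001 to 141360000 abutted without a gap.

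**Figure D3:**
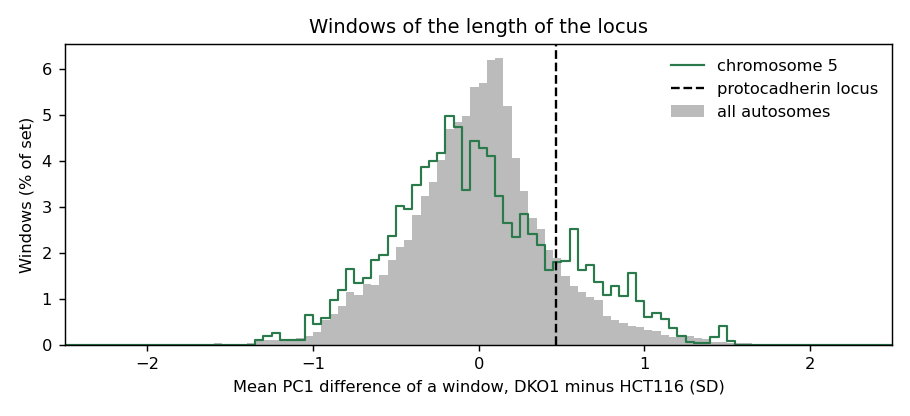
Mean PC1 difference, DKO1 minus HCT116 (horizontal axis in SD of the chromosome), of all 129505 autosomal windows of 37 bins (grey bars) and of the 8702 on chromosome 5 (green line), as a percentage of each set (vertical axis), with the protocadherin locus as a dashed line at 0.46. The locus lies on the upper side of both distributions without being at their end.

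Ranked among autosomal windows of its own length, the change of the locus was above the middle and not extreme. A difference at least as high was found in 11.7% of 129505 windows, and an absolute difference at least as large in 24.7%. The central 95% of windows ran from -0.85 to 0.94. For windows of the length of each stretch the shares at or above were 14.0% for alpha, 11.0% for beta and 15.4% for gamma. The switched share of the locus, 2.70% of its bins, was reached by 53.3% of windows, and 46.7% of windows had no switched bin. By its level the locus ranked lower in HCT116 than in DKO1, with 13.6% and 24.8% of windows at or below it.

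On chromosome 5 the locus stood out less. There 19.4% of windows had a difference at least as high, and its level was reached from below by 14.9% of windows in HCT116 and 16.9% in DKO1. Among windows whose HCT116 mean lay within 0.25 SD of that of the locus, the median difference was 0.18 over 12817 autosomal windows but 0.66 over the 677 on chromosome 5, and 26.7% and 70.2% of them had a difference at least as high. The locus was therefore less raised than most chromosome 5 windows of like HCT116 level. These windows overlap each other, some overlap the locus, and they are not independent. Matching on the HCT116 mean, which the difference subtracts, can by itself favour a rise in low windows. The chromosome 5 track itself changed in shape. Its median went from 0.20 in HCT116 to -0.03 in DKO1, a shift of -0.22, and its 95th percentile from 1.43 to 1.87. Relative to that median the locus was higher in DKO1 by 0.69. Against a running mean of 10 Mb it was higher by 0.22. How far the difference at the locus follows the shape of the chromosome 5 track was not tested.

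**Figure D4:**
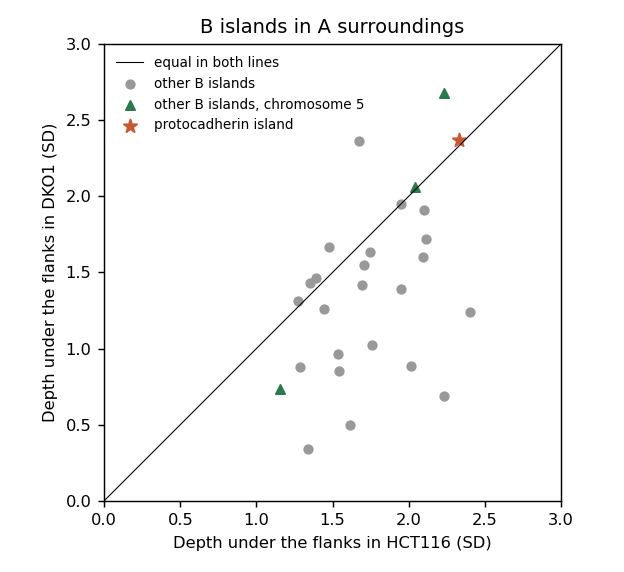
Depth under the 1 Mb flanks, in SD of the chromosome, of 27 autosomal B islands in HCT116 (horizontal axis) and DKO1 (vertical axis), each point 1 island and the diagonal marking equal depth. All islands were chosen on their HCT116 values, which favours depth in that line, and the protocadherin island (star) lies at 2.33 and 2.37, close to the diagonal.

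The island was compared with the other B islands of the HCT116 map that lie in A, a set defined after the values were seen as autosomal B intervals of 500 to 1200 kb with a mean PC1 above 0.5 in each 1 Mb flank. There were 27, of which 4 were on chromosome 5. Measured over its whole B interval, the protocadherin island had a depth of 2.33 in HCT116, above 25 of the other 26, and 2.37 in DKO1, again above 25. The median depth was 1.71 in HCT116 and 1.42 in DKO1, and the median change was -0.28, where that of the protocadherin island was 0.05. A set chosen on HCT116 values alone favours depth in HCT116, so this median alone cannot separate a loss of depth from the choice of islands. Chosen by the same rule in DKO1 there were 22 islands with a median change of -0.11, and chosen on the mean of both tracks 27 with -0.15. The median change was thus negative in each set, although smaller in the latter sets. Islands deeper in DKO1 numbered 9 of 27 when chosen in HCT116, 10 of 22 in DKO1 and 12 of 27 on the mean. In the sets chosen in DKO1 and on the mean the protocadherin island had narrower limits, 140120001-140880000 and 140120001-140900000. With these limits and the flanks beside them it changed by 0.11 in both sets. This was above 14 of the other 21 and above 19 of the other 26, so its change lay within the range of the others. Its bins had switched to A to a share of 11.6%, against a median of 6.52% and a highest share of 89.5%. In 8 of the 27 islands every bin was higher in DKO1, the protocadherin island included. It was touched by 3 domains in each line. No other island of the set had 3 DKO1 domains, the median was 1, and 12 had 0. DKO1 flanks were the highest of the set here, at 1.79 against a median of 0.87. The other islands on chromosome 5 changed in depth from 1.15 to 0.73 at 75020001, from 2.23 to 2.68 at 157400001 and from 2.04 to 2.06 at 177860001, and 3 of the 4 islands there were at least as deep in DKO1.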

How the data were processed

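Hi-C was made from 6 libraries, 3 of HCT116 and 3 of DKO1. Each line's 3 libraries point to a single shared set of files, which was therefore taken as pooled. Per the submitters' processing notes HiC-Pro, HOMER 4.6 and the build hg19 (GRCh37) were used, with the domain caller not given in the sources used here. The deposited compartment tracks hold a PC1 score per 20 kb bin, with a mean of 0 and an SD of 1 within each chromosome, and the deposited domain lists hold start and end positions on a 40 kb grid, with no score. Bins in both tracks were joined by position. Ranks used all windows of the length of the locus on the 22 autosomes, moved in steps of 20 kb, with at least 90% of bins present. A boundary was called found within 40 kb. A domain was called matched at 80% reciprocal overlap. No p-value was computed. The members, lists and comparisons were chosen with earlier results of these data known. Named positions are the extremes of each line and of the difference, the switched bins, the splits and the edges. The window ranking was tested on simulated data, where 20 of 20 planted changes were recovered. Those changes were of 3 SD, planted in the HCT116 track with little noise added. Real windows had an SD of difference of 0.43, and the locus changed by 0.46. The test therefore checked the code and not the ranking of a change of that size. Python 3.11.15, numpy 2.4.6, pandas 2.3.3 and matplotlib 3.10.9 were used.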

Additional observations from a re-analysis of the deposited data

How the results depend on the processing

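No paired analysis was possible because the libraries of each line share pooled files, and for the same reason no replicate could be left out. The mean PC1 difference stayed positive in the locus, its stretches and flanks under every alternative run. In the order locus, alpha, beta, gamma, upstream flank and downstream flank it was 0.69, 0.67, 0.75, 0.64, 0.75 and 0.86 after median subtraction, and 0.22, 0.19, 0.27, 0.17, 0.25 and 0.41 after a 10 Mb running mean was subtracted. Smoothing over 5 bins gave 0.47 for the locus and 0.45 for gamma. The median over bins gave 0.47 for alpha, 0.47 for beta, 0.45 for gamma, 0.56 for the upstream and 0.64 for the downstream flank. An absolute window difference at least that of the locus was found in 13.7% of windows after median subtraction and in 42.3% after the running mean. A switched share at least that of the locus was found in 33.6% of windows of similar HCT116 PC1 and, after the running mean, when no bin of the locus was switched, in 100% by construction. B-to-A bins numbered 0 after the running mean and 0 with a PC1 minimum of 0.5 in both lines, which 31 of 37 bins passed. Chosen after seeing the data, the change in depth under the flanks was 0.12 after the running mean, 0.10 after smoothing, 0.24 with flanks of 500 kb, -0.041 with flanks of 2 Mb and 1.59 in percentile points of chromosome 5. The median change of depth over B islands was -0.11 with islands chosen in DKO1 and -0.15 with islands chosen on the mean of both tracks, against -0.28. Boundary and domain counts stayed within 1.5 times. Every difference is between 2 pooled maps of unknown depth.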
